A study of Mus musculus with 4 samples.

Results

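Expression of 10 genes of the provisional repair matrix was examined in articular cartilage of young and adult mice after injury. The genes were Tnc, Postn, Fn1, Sparc, Thbs1, Thbs2, Col3a1, Col5a1, Col5a2 and Col12a1, chosen by gene symbol, and all 10 were found among the 24532 genes of the table. All mice were male according to the study. The 4 groups were sham and injured cartilage of young and of adult wild-type C57BL/6 mice. Young mice were 3 weeks old, whereas adult mice are given as 10 weeks old in the study's methods and as 12 or 14 weeks old in different sample labels. Injured cartilage was collected 3 days after surgery, which the paper describes as full-thickness cartilage injury (FTCI) of the femoral groove with a needle and the sample titles as DMM, surgical destabilization of the medial meniscus. The label of the adult sham sample covers days 3 to 14, so its time does not match that of the other libraries exactly. Each group was 1 library from 1 pool of mice, 5 uninjured or 10 injured, so that no difference given here has a replicate check, a standard deviation or a p-value.

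These genes encode matrix proteins that are laid down early in a wound, before a mature tissue matrix replaces them. Fibronectin, encoded by Fn1, is deposited first as a scaffold to which cells attach through integrins, and the matricellular proteins tenascin C, periostin, SPARC and the thrombospondins act on adhesion and on collagen assembly rather than forming the bulk of the matrix. Type III, type V and type XII collagens belong to fibrous tissues, where type V starts and limits the diameter of fibrils and type XII sits on their surface. Healthy articular cartilage is built mainly on type II collagen and aggrecan instead.

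Values are FPKM, numbers of fragments divided by transcript length and by the mapped fragments of the library, so that levels of different genes may be compared per length. Ratios between libraries are log2 ratios of FPKM + 1, and rose or fell is written only of a gene that was at least 2-fold higher or lower. Genes in general were not level between libraries. The 10891 genes that reached 1 FPKM everywhere had median log2 ratios of −0.04 after young injury, 0.23 after adult injury and −0.30 between adult and young sham, and the ratios below are to be read against these shifts. The chondrocyte label held in part. All 6 chondrocyte markers in the table, among them Col2a1 and Acan, were above 1 FPKM in every library. However, so were 9 or 10 of 10 macrophage, 8 of 8 neutrophil, 7 of 7 osteoblast, 6 of 6 skeletal muscle and 6 of 6 erythroid markers. Erythroid markers summed to 9633 FPKM in young sham and 18397 in young injured cartilage. In adult sham and adult injured cartilage they summed to 6950 and 3027 FPKM. Chondrocyte markers summed to 11991, 10158, 3695 and 4820 FPKM in the same order. The median injury log2 ratio of the erythroid markers was 0.89 in young and −0.84 in adult mice. Macrophage markers summed to 192.3 and 1907 FPKM in sham and injured cartilage of young mice and to 326.8 and 1662 FPKM in that of adult mice. In bulk tissue, fewer cells of a type and less RNA per cell cannot be told apart. No repair matrix gene shared more than 1.87% of its 31-base transcript words with another gene, and none is therefore a near-identical copy. Where 1 step in the lowest FPKM values is 1 fragment, the 6 members with a single listed transcript were covered by about 2790 to 117000 fragments, which is a counting error of 1.89% to 0.293%. That error does not include differences between mice or pools.

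The genes covered a wide range of levels. Sparc was the most abundant in all 4 libraries and was the 2nd to 6th most abundant of all genes, whereas Postn was the lowest in young sham cartilage at 10.9 FPKM and Col12a1 the lowest in both adult libraries. The order changed with injury. In young sham cartilage Sparc was followed by Col3a1, Thbs1, Col5a2 and Fn1, and in young injured cartilage by Fn1, Col3a1, Col5a2 and Thbs1. In adult sham cartilage the order after Sparc was Thbs1, Fn1, Col3a1 and Col5a2, and in adult injured cartilage Fn1, Col3a1, Col5a2 and Tnc. The levels of Tnc, Postn and Thbs1 in adult injured cartilage lay close together, at 58.9, 56.8 and 55.8 FPKM, and without replicates their order there cannot be resolved.

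**Figure D1:**
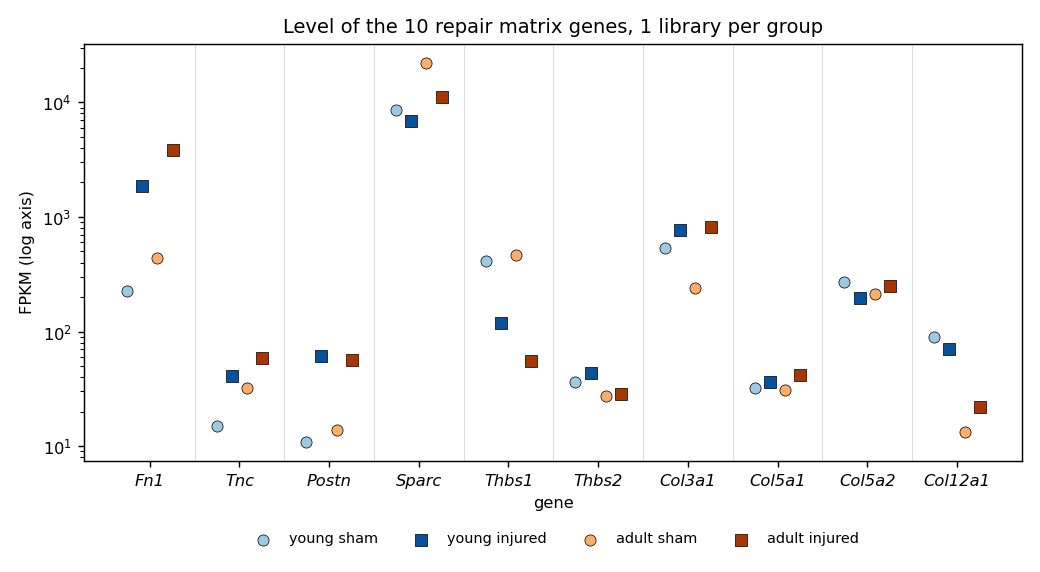
FPKM of the 10 repair matrix genes on a log axis, 1 point per gene and library, with circles for sham and squares for injured cartilage. Both injured points of Fn1 (1869 and 3803 FPKM) lie above both sham points (226.3 and 441.8 FPKM), and both injured points of Thbs1 (119.9 and 55.8 FPKM) lie below both sham points (412.0 and 470.0 FPKM).

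Promoter sequence was available in the RefSeq table for 6 of the 10 genes, with 8 annotated start sites. The promoters of Fn1, Thbs1, Col5a2 and Col12a1 were not analysed here. The 120 bases before the transcript start are shown for the 3 of them that rose at least 2-fold after injury at 1 or both ages, Postn, Tnc and Col3a1, and for Sparc, the most abundant member. Where a gene has 2 start sites, the downstream one is shown. They are written 5′ to 3′ on the gene's own strand (build GRCm38.p6), ending at the base before the start, and capitals mark the letters of a TATA box, written TATAAA or TATATAA, and TGTCTG, the opposite-strand reading of the SMAD element named next.
Postn, chr3:54360987-54361106, plus strand: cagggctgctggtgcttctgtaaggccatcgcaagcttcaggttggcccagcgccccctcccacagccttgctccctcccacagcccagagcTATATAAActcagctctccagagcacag
Tnc, chr4:64046937-64047056, minus strand: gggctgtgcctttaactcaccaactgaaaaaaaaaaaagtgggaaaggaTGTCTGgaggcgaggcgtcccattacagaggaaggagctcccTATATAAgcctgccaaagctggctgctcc
Col3a1, chr1:45311418-45311537, plus strand: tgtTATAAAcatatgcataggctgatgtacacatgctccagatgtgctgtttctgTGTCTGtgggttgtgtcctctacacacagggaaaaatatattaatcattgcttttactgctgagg
Sparc, chr11:55420081-55420200, minus strand: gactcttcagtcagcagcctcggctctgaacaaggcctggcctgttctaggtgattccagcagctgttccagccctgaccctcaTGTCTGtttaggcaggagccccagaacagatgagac

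Postn and Tnc carry TATATAA beginning 28 and 29 bases before the start, letters that occur on either strand in 1.62% of 32851 windows of the same length. The match of Col3a1, TATAAA, begins 117 bases before the start, and such a match occurs in 6.34% of windows. In Postn the 2 TATA spellings overlap. CAGACA, which holds the core letters bound by SMAD proteins, was found in 5 of the 8 windows, those of Tnc, Col3a1, Col5a1, Sparc and Thbs2, always on the strand opposite to the gene, against 7.86% of all windows. The GC box GGGCGG occurred in 1 of the 8 windows, that of Col5a1, against 26.5% of all windows. The CCAAT box occurred in none of the 8 windows and in 21.3% of all windows. Neither the AP-1 element TGACTCA, present in 2.30% of all windows, nor the TEAD element CATTCC, present in 5.82%, was found. All 7 motifs were searched on both strands, and some were chosen after the sequences had been seen. The 8 windows are not all separate, since the 2 of Tnc overlap. These matches describe the letters of short windows and were not tied to the measured levels, and Thbs2, which did not reach 2-fold after injury, carries CAGACA as well.

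The largest rise among the repair matrix genes was that of Fn1 (chromosome 1, 71585473 to 71653280, minus strand). Fn1 was at 226.3 and 1869 FPKM in sham and injured cartilage of young mice and at 441.8 and 3803 FPKM in that of adult mice. Both injured libraries were above both sham libraries. The level was 8.26-fold higher after injury in young and 8.61-fold higher in adult mice, log2 ratios of 3.04 and 3.10, which differed by 0.06. With this rise Fn1 moved from the 286th to the 29th most abundant gene in young cartilage and from the 155th to the 11th in adult cartilage. Fn1 was also compared with the cartilage collagen gene Col2a1 inside each library, a ratio that no scaling factor between libraries can change. Fn1 FPKM were 0.0242 and 0.237 times those of Col2a1 in sham and injured cartilage of young mice and 0.139 and 1.01 times in that of adult mice. In adult injured cartilage the fibronectin gene was thus at the level of the main cartilage collagen gene. Macrophage markers rose alongside, all 10 of them at both ages, with a median log2 ratio of 3.29 in young mice and 1.98 in adult mice, and macrophages also express Fn1. Fibroblast markers summed to 362.2 and 1579 FPKM in young and to 266.0 and 890.8 FPKM in adult mice. The higher injured sums came almost wholly from Lum, at 230.0 and 1437 FPKM in young and 129.1 and 778.4 FPKM in adult mice. Of the 10 fibroblast markers 3 were higher in young mice (median log2 ratio 0.64). In adult mice 2 were higher and 2 lower (median 0.46). Neutrophil markers summed to 1201 and 2476 FPKM in young mice, with 3 of 8 higher (median 0.93), and to 1562 and 1893 FPKM in adult mice, with 0 of 8 higher (median 0.42). Myofibroblast markers summed to 258.4 and 179.6 FPKM in young mice, with 0 of 6 higher and 1 lower (median −0.10), and to 51.2 and 86.4 FPKM in adult mice, with 1 of 6 higher (median 0.50). Endothelial markers rose as well, 5 of 6 at both ages, with median log2 ratios of 1.92 and 1.45, and their sums ranged from 14.8 FPKM in young sham to 73.6 FPKM in young injured cartilage. The part of these cells in the rise of Fn1 was not tested, nor was it for Postn, Tnc and Col3a1. The FPKM of Fn1 relative to those of Lyz2, an abundant macrophage gene, were 1.60 and 1.47 in sham and injured cartilage of young mice and 2.41 and 3.49 in that of adult mice. Apol7d, an antisense gene that overlaps Fn1, was at most 0.396 FPKM in any library.

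Tnc and Postn encode the matricellular proteins tenascin C and periostin, which are scarce in resting adult tissues and appear at sites of wounding. Postn (chromosome 3, 54359267 to 54391041, plus strand) was at 10.9 and 60.9 FPKM in sham and injured cartilage of young mice and at 13.8 and 56.8 FPKM in that of adult mice. Its sham levels were similar at both ages, as were its injured levels. The increase was 5.60-fold in young and 4.12-fold in adult mice (log2 ratios of 2.38 and 1.97). Tnc (chromosome 4, 63959785 to 64047015, minus strand) was, in the same order, at 14.9, 41.1, 32.4 and 58.9 FPKM. Its level rose 2.76-fold in young mice, a log2 ratio of 1.41. In adult mice the injured library was 1.82-fold above the sham library, a log2 ratio of 0.84, so that the 2-fold threshold was not reached. The higher starting level in adult sham cartilage, 2.18 times that of young sham cartilage, lies between the young sham and young injured levels. Relative to each other, Postn FPKM were 0.730 times those of Tnc in young sham and 1.48 times in young injured cartilage, and 0.425 and 0.965 times in adult sham and adult injured cartilage. Postn is also a gene of bone-forming cells. The 7 osteoblast markers summed to 567.1 and 857.8 FPKM in sham and injured cartilage of young mice and to 5324 and 5312 FPKM in that of adult mice. The adult sums were mostly due to Ibsp. Of these markers 1 was at least 2-fold higher after injury in young mice (median log2 ratio 0.08) and 2 in adult mice (median 0.61), Runx2 and Phex, both named after their values were seen. Their part in the rise of Postn was not tested.

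The fibrous collagen genes did not move as 1 group. Col3a1 (chromosome 1, 45311538 to 45349706, plus strand), which encodes the collagen of early granulation tissue and of distensible organs, was at 536.7 and 772.4 FPKM in sham and injured cartilage of young mice and at 238.5 and 810.9 FPKM in that of adult mice. The injured levels were similar at both ages and the adult sham level was the lowest. Col3a1 rose 3.40-fold in adult mice (log2 ratio 1.76) and was 1.44-fold higher in young mice (0.52). The ratio of Col3a1 to Col1a1 FPKM, which compares type III with the main type I collagen chain, was 2.65 in young sham cartilage and 1.26, 1.07 and 1.09 in young injured, adult sham and adult injured cartilage.

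Col5a1 and Col5a2 encode the α1 and α2 chains of type V collagen. Col5a1 (chromosome 2, 27886381 to 28039510, plus strand) was between 30.8 and 42.1 FPKM in all libraries, with log2 ratios after injury of 0.18 in young and 0.44 in adult mice. Col5a2 (chromosome 1, 45374331 to 45503282, minus strand) was at 269.7 and 198.1 FPKM in sham and injured cartilage of young mice and at 213.5 and 247.8 FPKM in that of adult mice, with log2 ratios of −0.44 and 0.21, the latter −0.12 after median-of-ratios scaling. These were the smallest ranges among the 10 genes, 1.37-fold for Col5a1 and 1.36-fold for Col5a2 between the highest and the lowest library. Col5a2 FPKM exceeded those of Col5a1 8.36-fold and 5.41-fold in young sham and young injured cartilage and 6.94-fold and 5.89-fold in adult sham and adult injured cartilage. In the usual type V molecule the α1 chain is the more frequent one, and the α2(V) chain can also assemble with the α1(XI) chain of cartilage. Col11a1, which encodes that chain, was 23.8, 16.2, 5.16 and 7.69 times as high as Col5a1 in the same order of libraries. The genes Col3a1 and Col5a2 are neighbours on chromosome 1, with their 3′ ends facing each other across 24625 bases and no protein-coding gene between them, yet Col3a1 varied 3.40-fold over the libraries.

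Col12a1 (chromosome 9, 79598987 to 79721141, minus strand), which encodes the fibril-associated type XII collagen, was set apart by age. It was at 89.4 FPKM in young sham and 69.8 in young injured cartilage, but at 13.3 and 22.0 FPKM in the adult sham and injured libraries, so that both young libraries were above both adult libraries. The log2 ratios after injury were −0.35 in young and 0.68 in adult mice, neither of them 2-fold. Adult sham cartilage was 6.70-fold below young sham cartilage, the largest difference between the sham libraries among the 10 genes. A lower adult level was not particular to Col12a1. In the same comparison 8 of 10 cartilage matrix genes were at least 2-fold lower, with a median log2 ratio of −1.82. Relative to Col2a1, Col12a1 FPKM were 0.00956 and 0.00883 in young sham and young injured cartilage. In adult sham and adult injured cartilage they were 0.00420 and 0.00586.

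The thrombospondin genes differed from one another. Thbs1 (chromosome 2, 118111876 to 118127133, plus strand) encodes thrombospondin 1, an activator of latent TGF-β and an inhibitor of angiogenesis that platelets release at wounds. It was at 412.0 and 119.9 FPKM in sham and injured cartilage of young mice and at 470.0 and 55.8 FPKM in that of adult mice. Both injured libraries lay below both sham libraries, so that the gene moved opposite to Fn1 and Postn. The fall was 3.44-fold in young and 8.43-fold in adult mice (log2 ratios of −1.77 and −3.05), and 0.182% and 0.0495% of all genes above 0 had a lower log2 ratio. Thbs2 (chromosome 17, 14665500 to 14694262, minus strand), the closest relative of Thbs1, was at 36.0, 43.5, 27.4 and 28.4 FPKM, with a log2 ratio of 0.27 in young mice and 0.05 in adult mice, the latter −0.28 after median-of-ratios scaling. The FPKM of Thbs1 relative to those of Thbs2 therefore went from 11.4 to 2.76 in young and from 17.1 to 1.96 in adult cartilage. Thbs1 FPKM were 1.82 and 1.06 times those of Fn1 in young and adult sham cartilage and 0.0641 and 0.0147 times in young and adult injured cartilage.

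Markers of other tissues did not all move with Thbs1. The 6 skeletal muscle markers summed to 562.8 FPKM in young sham and 549.8 in young injured cartilage, with a median log2 ratio of −0.04, while Thbs1 fell there. In adult mice they summed to 1405 FPKM in sham and 383.9 in injured cartilage, a median log2 ratio of −1.67, in the same direction as Thbs1, and their part in its lower level was not tested. The 6 platelet and megakaryocyte markers, cells that contain thrombospondin 1, summed to 19.6 and 131.7 FPKM in sham and injured cartilage of young mice and to 24.8 and 78.6 FPKM in that of adult mice. These sums were higher in injured cartilage, where Thbs1 was lower, and Pf4 made up most of the sum in both injured libraries. Of the 6 markers 4 were at least 2-fold higher in young mice (median log2 ratio 1.301) but only Pf4 in adult mice (median 0.26). The 5 tendon and ligament markers summed to 1598 and 773.2 FPKM in young and to 1064 and 451.3 FPKM in adult mice. These sums were almost wholly those of Fmod, which fell at both ages (log2 ratios of −1.07 and −1.25). The list as a whole was not lower, with medians of −0.01 and 0.13, and Scx rose in young mice (1.44). The part of these tissues in the level of Thbs1 was not tested.

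Sparc (chromosome 11, 55394159 to 55420080, minus strand) encodes a collagen-binding glycoprotein that is abundant in bone and in skeletal tissues. Sparc was at 8634 and 6815 FPKM in sham and injured cartilage of young mice and at 22039 and 11027 FPKM in that of adult mice. Both adult libraries were above both young libraries. Osteoblast markers were also higher in adult cartilage, with 4 of 7 at least 2-fold above young sham in adult sham cartilage, a median log2 ratio of 1.53 and sums of 567.1 against 5324 FPKM. Their part in the level of Sparc was not tested. Log2 ratios after injury were −0.34 in young and −0.999 in adult mice, the latter just under the threshold. Median-of-ratios scaling moved the adult value to −1.34, and quantile normalization, which keeps only the rank of a gene, to 0.10. Sparc ranked as the 3rd most abundant gene in adult sham and the 2nd in adult injured cartilage. No direction is therefore given for Sparc after injury in adult mice. Relative to Col2a1, Sparc FPKM were 0.923 and 0.862 in young sham and young injured cartilage and 6.95 and 2.94 in adult sham and adult injured cartilage.

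**Figure D2:**
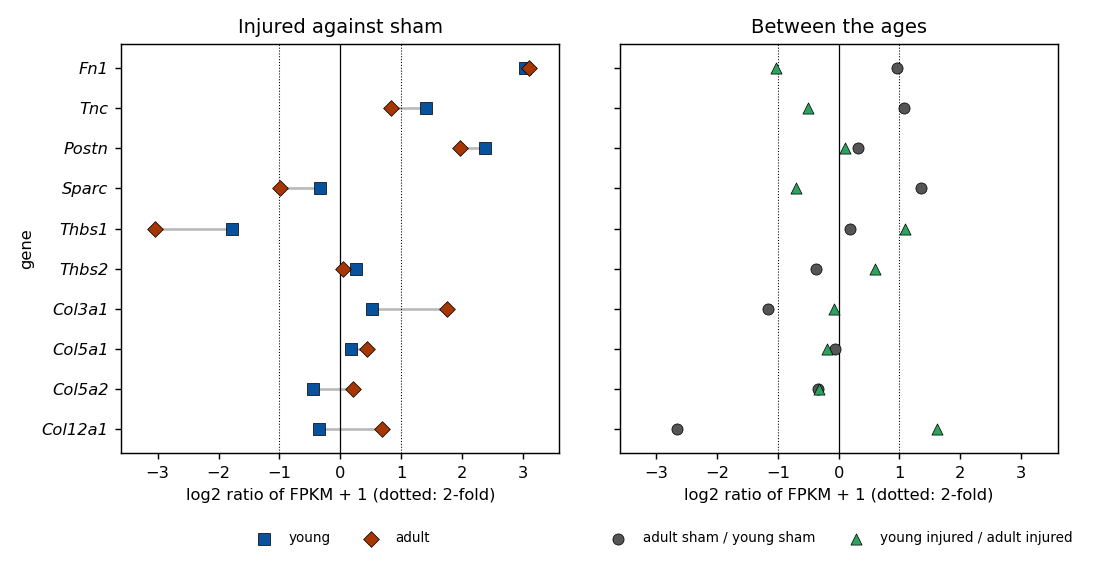
Log2 ratios of FPKM + 1 for the 10 genes, injured against sham cartilage in the left panel (squares young, diamonds adult) and between the ages in the right panel, with dotted lines at 2-fold. Fn1 has nearly the same injury ratio at both ages (3.04 and 3.10), Thbs1 the lowest at both (−1.77 and −3.05), and Col12a1 lies far to the left between the sham libraries (−2.66).

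Counted at the 2-fold threshold, 3 of the 10 genes rose in young cartilage, Fn1, Postn and Tnc, and 1 fell, Thbs1. Over all 18181 genes above 0 in at least 1 library, 4.57% were at least 2-fold higher and 1.27% at least 2-fold lower after injury in young mice. In adult cartilage 3 genes rose, Fn1, Postn and Col3a1, and Thbs1 fell, where 6.90% of all genes were higher and 1.46% lower. The median log2 ratio of the 10 genes was 0.22 in young and 0.56 in adult mice, against 0.00 and 0.14 over all genes. Fn1 and Postn rose at both ages, a pattern of 3.01% of all genes, and Thbs1 fell at both ages, as did 0.347%. With 10 genes, each gene is 1 in 10 of the list, so that these shares are coarse.

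The injury ratios of the ages were then set against each other. The young ratio was the larger for 5 of the 10 genes, and so it was for 33.7% of all genes. The difference between the young and the adult log2 ratio was 0.56 for Tnc, 0.41 for Postn, 1.28 for Thbs1 and 0.22 for Thbs2. Those of Tnc, Postn and Thbs1 stayed above 0 after each way of rescaling, whereas that of Thbs2 was 0.0067 when FPKM were brought to equal sums. The difference was −1.24 for Col3a1, −1.03 for Col12a1 and −0.66 for Col5a2, and it stayed below 0 after each of them. For Sparc (0.66), Fn1 (−0.06) and Col5a1 (−0.26) the sign depended on the scaling, with −0.87 for Sparc after quantile normalization and with 0.26 for Fn1 and 0.05 for Col5a1 after median-of-ratios scaling. None of these differences was tested.

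Summed over the 9 genes other than Sparc, the repair matrix genes reached 1628 and 3212 FPKM in sham and injured cartilage of young mice and 1482 and 5126 FPKM in that of adult mice. Fn1 alone made up 13.9% of this sum in the young sham library, 58.2% after injury in young mice, 29.8% in the adult sham library and 74.2% after injury in adult mice. Without Sparc and Fn1 the other 8 genes summed to 1402, 1342, 1040 and 1323 FPKM, so that the higher sums in injured cartilage came mostly from Fn1. Sparc was 84.1% and 93.7% of the sum of all 10 genes in young and adult sham cartilage and 68.0% and 68.3% in young and adult injured cartilage.

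**Figure D3:**
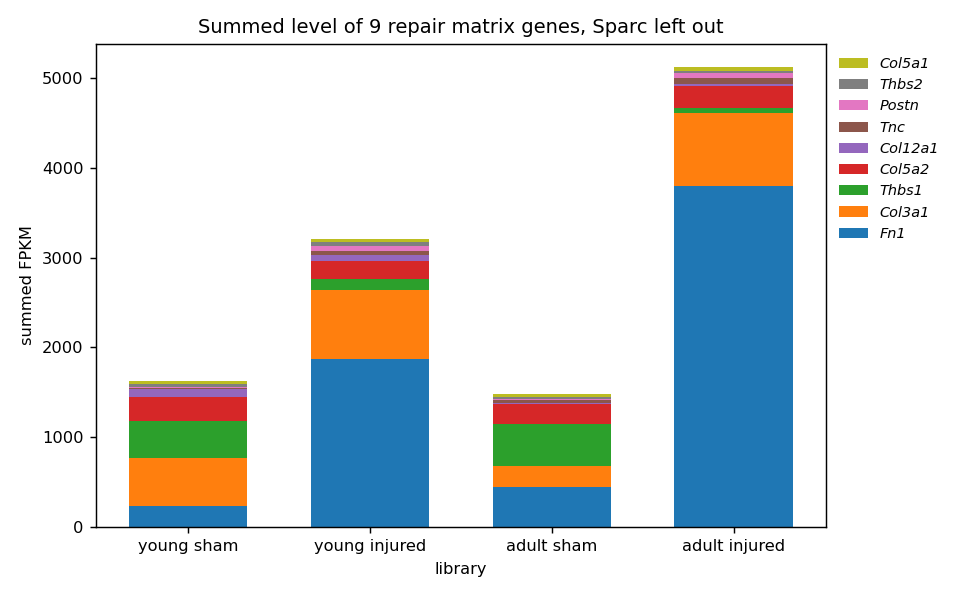
Summed FPKM of 9 repair matrix genes in each library, with Sparc left out because of its far higher level, stacked by gene. The bars reach 1628, 3212, 1482 and 5126 FPKM, and the lowest segment, Fn1, accounts for most of the difference between sham and injured bars.

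Between the sham libraries 2 of the 10 genes were at least 2-fold higher in adult mice, Sparc (log2 ratio 1.35) and Tnc (1.07), and 2 were at least 2-fold lower, Col12a1 (−2.66) and Col3a1 (−1.17). Over all genes 2.66% were higher and 10.6% lower in adult sham cartilage. Markers of other tissues were higher in adult sham cartilage too, with 4 of 7 osteoblast markers (median log2 ratio 1.53), 4 of 6 skeletal muscle markers (1.47) and 6 of 10 macrophage markers (1.02) at 2-fold or more, while 4 of 6 chondrocyte markers (−1.71), 4 of 6 erythroid markers (−1.23) and 2 of 6 myofibroblast markers (−0.14) were at least 2-fold lower. The erythroid marker Hbb-bs went the other way (4.75). Their part in these differences was not tested. Fn1 was 1.95-fold higher in adult sham cartilage, a log2 ratio of 0.96, and the median of the 10 genes was 0.06, against −0.15 over all genes. The calls near the threshold moved with the scaling. After median-of-ratios scaling Fn1 passed it with a log2 ratio of 1.40 and Col3a1 did not, with −0.73. Quantile normalization brought Sparc to 0.31, and a pseudocount of 5 FPKM brought Tnc to 0.91, under the threshold. The comparison shares the young sham library with the injury ratios of young mice and the adult sham library with those of adult mice, so that a low value in adult sham cartilage, as that of Col3a1, enters both. Over all genes, 484 were higher and 1934 lower in adult sham cartilage, but 1065 and 932 after median-of-ratios scaling, and after injury in adult mice 1255 were higher and 266 lower, but 802 and 527 after that scaling.

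When the injured libraries were compared directly, which shares no library with that of the shams, Fn1 was 2.03-fold lower in young than in adult mice (log2 ratio −1.02). Col12a1 was 3.18-fold higher in young mice (1.62) and Thbs1 2.15-fold higher (1.09). Over all genes 3.09% were at least 2-fold higher and 1.80% at least 2-fold lower in young injured cartilage. In the same comparison 4 of 6 chondrocyte markers (median log2 ratio 1.11) and 6 of 6 erythroid markers (3.04) were at least 2-fold higher in young mice, and 4 of 7 osteoblast markers (−1.09) at least 2-fold lower. Their part in these differences was not tested. Thbs1 did not reach 2-fold when the libraries were rescaled, with log2 ratios between 0.92 and 0.97. Postn (log2 ratio 0.10) and Col3a1 (−0.07) were nearly level between the injured libraries. The median of the 10 genes was −0.13, against 0.04 over all genes.

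Other matrix genes were examined in 6 lists. Of 18 further matricellular and adhesive genes above 0, 3 rose and 3 fell after injury in young mice and 2 rose and 4 fell in adult mice. Spp1, which encodes osteopontin, was at 396.7 and 2338 FPKM in sham and injured cartilage of young mice and at 2722 and 4953 FPKM in that of adult mice, log2 ratios of 2.56 and 0.86. Tgfbi, a TGF-β-induced adhesion protein, rose at both ages (1.05 and 1.73). Thbs4, another thrombospondin, fell from 55.9 FPKM (young sham) to 21.5 (young injured) and from 695.5 (adult sham) to 91.8 (adult injured) (−1.34 and −2.91). Thbs3, named after its values were seen, had log2 ratios of −0.79 and −1.24. Of the 5 thrombospondin genes, Thbs1 and Thbs4 fell at both ages and Thbs3 in adult mice, whereas Thbs2 (0.27 and 0.05) and Comp, the cartilage thrombospondin (0.58 and −0.64), did not reach 2-fold at either age. Vcan, the proteoglycan versican, rose in adult mice (1.14) and had a log2 ratio of −0.94 in young mice. Spon1, a spondin, fell at both ages (−2.40 and −1.54). The fibrinogen genes, also named after their values were seen, were close to 0. Fgg and Fga, whose plasma proteins form the clot, reached at most 0.287 and 0.0454 FPKM, and Fgb was listed at 0 in all libraries.

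Of 11 other collagen genes of fibrous tissue, 2 rose and 3 fell in young mice, and 3 rose and 2 fell in adult mice. Col1a1, which encodes the main chain of type I collagen, rose from 202.5 FPKM (young sham) to 615.0 (young injured) and from 223.2 (adult sham) to 740.6 (adult injured), log2 ratios of 1.60 and 1.73. Col1a2, its partner chain and the most abundant of the list, rose in adult mice (1.08) and had a log2 ratio of 0.53 in young mice. Col5a3, the third type V chain, rose from 2.31 to 10.3 and from 5.15 to 17.9 FPKM (1.78 and 1.62), unlike Col5a1 and Col5a2. Col15a1 (−1.79 and −1.53) and Col8a2 (−1.48 and −1.51) fell at both ages. Among 13 microfibre genes, 3 rose and 1 fell in young mice and 4 rose and 1 fell in adult mice. Emilin2, an elastic fibre glycoprotein, rose at both ages, from 2.54 to 12.5 FPKM and from 3.29 to 16.2 FPKM, as did Fbln2, a fibulin that binds fibronectin (2.30 and 1.10), and Efemp1, another fibulin, fell at both (−1.42 and −1.06). Efemp2, the most abundant of these genes, had log2 ratios of 0.03 and −0.16.

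Of 15 collagen processing genes, Lox, the lysyl oxidase that cross-links collagen, was the single gene that rose in young mice, from 8.98 to 32.2 FPKM (log2 ratio 1.73). In adult mice its log2 ratio was 0.44 and no gene of the list rose. Loxl2 fell in adult mice (−1.05). Serpinh1, the collagen chaperone and the most abundant of the list, had log2 ratios of 0.67 and 0.02. One other gene fell in young mice, Adamts3, whose mean level was under 5 FPKM. Among 18 receptor genes 1 rose and 1 fell in young mice, and 3 rose in adult mice. Cd36, a receptor of thrombospondin 1 that macrophages and endothelial cells also carry, rose from 2.54 FPKM (young sham) to 23.1 (young injured) and from 1.69 (adult sham) to 12.0 (adult injured) (2.76 and 2.27). Itgb3, a chain of integrins that bind fibronectin and periostin, had log2 ratios of 0.85 and 1.42. Sdc4, a syndecan and the most abundant of the list, had log2 ratios of −0.83 and −0.49.

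Cartilage matrix genes served for contrast. None of 10 rose and 1 fell in young mice (Matn1, −1.01), with a median log2 ratio of −0.28, whereas 5 rose in adult mice, with a median of 0.87, led by Matn1 (2.28) and Col9a1 (1.95). In adult sham against young sham cartilage 8 of these 10 genes were at least 2-fold lower and the median was −1.82, while Comp was higher (2.44). Since the same adult sham library enters both comparisons, the adult values are not independent of each other. Col2a1 was at 9349 and 7903 FPKM in sham and injured cartilage of young mice and at 3173 and 3750 FPKM in that of adult mice.

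**Figure D4:**
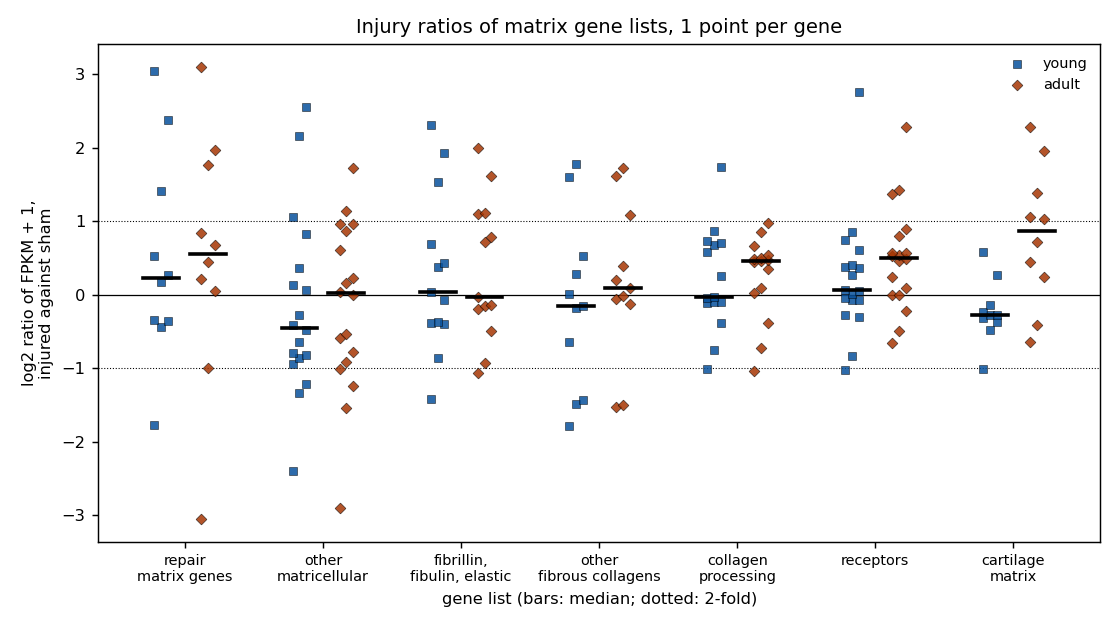
Log2 ratios of FPKM + 1 for injured against sham cartilage, 1 point per gene, for the 10 repair matrix genes and 6 further lists (squares young, diamonds adult), with bars at the medians and dotted lines at 2-fold. Repair matrix genes spread from −1.77 to 3.04 in young and from −3.05 to 3.10 in adult mice, and the cartilage matrix genes have medians of −0.28 and 0.87.

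Genes with patterns like those of the members were sought among 8054 others that averaged 5 FPKM or more, by the Euclidean distance between log2 values centred on each gene's mean over the 4 libraries. With 4 values per gene this is a description only. Only 1 gene lay within a distance of 0.5 of Fn1 and none within it of Thbs1. The values were not scaled to equal spread, so that genes with a wide range tend to have few others within a fixed distance. Fn1 varied 16.8-fold and Thbs1 8.43-fold over the libraries, and the counts do not show that the direction of their patterns is rare. Angptl4, an angiopoietin-like protein, was nearest to Fn1 (distance 0.35), at 1.73 and 18.9 FPKM in young sham and injured and 3.46 and 31.5 FPKM in adult sham and injured cartilage, followed by Mt1 (0.58), a metallothionein, and Wisp2 (0.59), a CCN family gene. Rbp4, the plasma retinol carrier, was nearest to Thbs1 (0.63), at 320.8, 98.6, 399.6 and 75.4 FPKM, followed by Chst3 (0.77), a chondroitin sulfotransferase, and Cfd (0.83), an adipocyte-derived complement factor.

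Within the same distance lay 39 genes for Tnc, 50 for Postn, 84 for Sparc, 88 for Col3a1 and 21 for Col12a1. For Postn the nearest were Tnfrsf1b (0.13), Ly86 (0.14) and Pld4 (0.20). Ly86 is known from myeloid cells, and the others were not assigned to a cell type here. For Tnc they were Adssl1 (0.13), H2-K1 (0.15), a class I antigen-presenting gene, and Anxa1 (0.17). Sparc was closest to Pink1 (0.06), Clu (0.07) and Ackr3 (0.16), and Col3a1 to 1600014C10Rik (0.08), Adam10 (0.16) and Tsc22d1 (0.19). For Col12a1 the nearest was Dnm3os (0.15), a noncoding RNA gene, and then came Mtap7d3 (0.17) and Rcn1 (0.19). The flat patterns of Thbs2, Col5a1 and Col5a2 were shared by 2543, 2815 and 2610 genes, so that their nearest genes carry no information.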

How the data were processed

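RNA was taken from 4 pools of cartilage, 1 per group, and sequenced as paired-end, stranded mRNA libraries. The authors deposited FPKM per gene on mm10. The submitters' processing notes name HISAT2 2.1.0, StringTie 1.3.4d, STAR and SAMtools without their roles, and the strand setting of the counting is not given in the sources used here. Groups were taken from the sample titles. Log2 ratios of FPKM + 1 were calculated here over the 18181 genes above 0 in at least 1 library. With 1 library per group no single comparison could be tested, and an additive fit of age and injury over the 4 libraries was not run. The alternatives were pseudocounts of 0.1 and 5 FPKM, leaving out genes that never reached 1 FPKM, scaling to equal sums (TPM) or by median-of-ratios, quantile normalization, and 1.5-fold or 3-fold as the threshold. The members, lists and rules were chosen with earlier results of these data known. Besides the members, genes to be named from each list could be those with the 2 largest rises and falls in either injury comparison among genes averaging 5 FPKM or more, and the most abundant one. Not all of these are named, and other names (such as Acan, Adamts3, Apol7d, Col11a1, Hbb-bs and Scx) were chosen after their values were seen. Gene positions and promoters are from RefSeq (GRCm38.p6, the assembly of mm10), and strands and transcripts from GENCODE. Library depth, about 25800000 to 30900000 fragments, was estimated from steps in the lowest FPKM. Python 3.11.15, numpy 2.4.6, pandas 2.3.3 and matplotlib 3.10.9 were used, and the scripts were tested on simulated data.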

Additional observations from a re-analysis of the deposited data

Results flagged for a closer look

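Col5a2 and Col12a1 had injury ratios of opposite sign at the 2 ages. The log2 ratio of injured to sham cartilage was −0.44 in young and 0.21 in adult mice for Col5a2, and −0.35 and 0.68 for Col12a1. Each value rests on 1 library per group, none reached 2-fold, and the difference was not tested. Opposite signs were seen for 38.6% of all genes. The adult value of Col5a2 was −0.12 after median-of-ratios scaling, whereas the 2 signs of Col12a1 were kept under each way of scaling. The other alternatives, pseudocount and filter, cannot change a sign.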

How the results depend on the processing

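Of the 40 log2 ratios of the 10 genes in the 4 comparisons, 33 kept their sign in every alternative. A pseudocount or the filter cannot change a sign, so only the ways of scaling put it to a check. Of the 15 ratios at 2-fold or more, 11 stayed there under all 6 alternatives of pseudocount, filter and scaling. The rises of Fn1 and Postn and the fall of Thbs1 at both ages, of Tnc in young and of Col3a1 in adult mice were among the 11. The median log2 ratio of the 10 genes ranged from 0.11 to 0.23 after young injury and from 0.24 to 0.67 after adult injury, and 7 genes in place of 5 had the larger ratio in young mice after median-of-ratios scaling. Some counts moved. With a pseudocount of 5 FPKM 1 gene in place of 2 was at least 2-fold higher in adult than in young sham cartilage. Median-of-ratios scaling gave 2 genes lower after injury in adult mice, 1 lower in adult sham cartilage, and 1 higher in the young injured library. Quantile normalization gave 1 higher and 2 lower in the comparison of injured libraries. Over all 18181 genes, 225 were higher in adult sham cartilage with the pseudocount of 5 FPKM. Median-of-ratios scaling gave 527 lower after adult injury, 932 lower in adult sham cartilage and 460 higher in the young injured library. Between the injured libraries quantile normalization gave 463 higher and 408 lower. A threshold of 1.5-fold gave 5 higher and 2 lower genes for adult injury and 2 lower genes between the injured libraries. Of all 18181 genes, 3262 were higher and 720 lower at 1.5-fold for adult injury, and 1001 lower between the injured libraries. A threshold of 3-fold gave 0 higher and 1 lower in adult sham cartilage and 1 higher and 0 lower in young injured cartilage. Over all genes it gave 183 higher and 505 lower in adult sham cartilage, and 188 higher and 96 lower in young injured cartilage. Fewer or more genes pass a changed threshold by construction, and for the other alternatives the cause was not tested. No paired analysis was possible because the labels give no replicate numbers and each comparison sets 1 library against 1 other. An additive fit of age and injury over the 4 libraries, which would leave 1 residual degree of freedom, was not run. Depth is known only through the steps of low FPKM, and differences between pools of mice cannot be estimated.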
